A study of Mus musculus with 20 samples.

Results

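The regions described here are stretches of chromatin that were accessible in mouse embryonic stem cells (ESCs), inaccessible in mouse embryonic fibroblasts (MEFs), and accessible for most of a reprogramming time course whether the fibroblasts received Nanog+Oct4 or NanogN70+Oct4. Overlapping ATAC-seq peaks of all 20 libraries were joined, which gave 335858 regions, and open here means that a library had a peak in the region. Members lacked a peak in the MEF library, had one in 2 or 3 of the 3 ESC libraries, and had one on 5 or more of 8 days in each of the 2 paths. There were 911 members among 55446 ESC-only regions, that is, regions closed in MEFs and open in 2 or more ESC libraries. This was 1.64% of ESC-only regions. A peak on 5 or more days was found at 2.3% of ESC-only regions (1273) with Nanog+Oct4 and at 4.75% (2636) with NanogN70+Oct4. These shares follow from the rule and are a description.

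ATAC-seq maps accessible DNA through cutting by Tn5 transposase. The series held 1 MEF library, 3 ESC libraries and, for each path, 1 library on each of 8 days, which were days 0, 1, 3 and 5 followed by days 7, 8, 10 and 12. The MEFs carried the OG2 Oct4-GFP reporter and came from embryos of OG2 and 129 crosses, and both paths received Oct4 from a pMXs retroviral vector with native Nanog in one path and NanogN70 in the other. The latter, which the study also calls NanogBiD, is NANOG with the BRG1-interacting domain of SS18, a subunit of the BAF remodelling complex, joined to its N-terminus. Day 0 was the end of infection, so the factors had been present for the infection period by then, and per the study's methods the cells were moved from iCD3 medium to N2B27 with 2iL after the first week. Retroviral infection gives a mixed population, and in such bulk samples a larger share of cells with an open site cannot be told apart from a more open site in each cell. The ESCs were OG2 cells grown without feeders in 2iL. Their source field reads MEF although their titles read ESC, and the titles were used to group them. Peaks lay within 500 bp of the start sites of 6 to 7 of 7 ESC marker genes in the 3 ESC libraries and of 7 of 7 fibroblast marker genes in the MEF library. The markers separated the cells only in part, since the MEF library also had peaks at 4 of 7 ESC genes and each ESC library at 4 of 7 fibroblast genes.

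OCT4 and NANOG are transcription factors of the network that maintains pluripotency, and OCT4 often binds beside SOX2 at a composite element. OCT4 recognises an octamer, and it can engage some of its sites in nucleosomal DNA. BAF complexes use ATP to move or evict nucleosomes, with BRG1 as a catalytic subunit, and keep many enhancers of ESCs accessible.

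Examples of octamer and composite sites at the ESC summit of 7 members are shown first. They were picked for having a match, and most members have none. They are the 6 members with the highest ESC signal among those with a composite match, and the member near Parp11 (an ADP-ribosyltransferase), which was open in every time course and ESC library and had 2 octamers. Each line is named by the protein-coding gene with the nearest start site and gives the GRCm38 sequence centred on the summit and reaching 75 bases to either side. Capitals mark matches on either strand to OCT (ATGCNAAT), SOX (CATTGT or CTTTGT) or OCT-SOX (TTGTNATGC), the last of which can share bases with the other two.
Klf13, chr7:63957123-63957273, plus strand: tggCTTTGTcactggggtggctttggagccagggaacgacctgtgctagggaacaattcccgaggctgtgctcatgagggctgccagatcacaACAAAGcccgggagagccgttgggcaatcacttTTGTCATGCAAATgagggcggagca
Ago1, chr4:126465888-126466038, plus strand: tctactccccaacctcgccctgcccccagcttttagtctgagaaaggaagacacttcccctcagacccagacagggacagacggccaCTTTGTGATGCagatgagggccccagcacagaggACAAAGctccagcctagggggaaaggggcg
Hipk2, chr6:38730584-38730734, plus strand: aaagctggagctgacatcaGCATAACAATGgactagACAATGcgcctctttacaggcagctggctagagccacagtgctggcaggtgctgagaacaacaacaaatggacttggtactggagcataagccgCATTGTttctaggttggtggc
Galnt17, chr5:131177272-131177422, plus strand: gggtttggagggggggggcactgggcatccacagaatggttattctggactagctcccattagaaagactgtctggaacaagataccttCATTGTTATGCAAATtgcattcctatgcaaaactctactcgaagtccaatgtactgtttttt
Diaph3, chr14:86396134-86396284, plus strand: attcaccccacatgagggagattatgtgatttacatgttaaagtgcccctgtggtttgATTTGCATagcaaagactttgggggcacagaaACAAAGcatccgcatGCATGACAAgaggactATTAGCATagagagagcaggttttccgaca
Ermard, chr17:15208167-15208317, plus strand: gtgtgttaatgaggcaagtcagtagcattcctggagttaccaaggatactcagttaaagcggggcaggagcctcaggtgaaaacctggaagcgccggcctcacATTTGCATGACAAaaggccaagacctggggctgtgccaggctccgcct
Parp11, chr6:127336807-127336957, plus strand: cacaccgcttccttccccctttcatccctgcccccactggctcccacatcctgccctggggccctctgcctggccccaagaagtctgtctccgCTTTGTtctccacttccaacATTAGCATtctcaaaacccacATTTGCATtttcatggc

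At Klf13, Galnt17 and Ermard the composite shared bases with an octamer, so both form 1 run of capitals, and the composite lay 51, 16 and 32 bp from the summit. At Ago1 the composite lay 14 bp from the summit. At Hipk2 it lay 48 bp away and shared bases with a SOX match. At Diaph3 it lay 30 bp away, with octamers at 10 and 46 bp. At Parp11 the octamers lay 38 and 59 bp from the summit.

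Klf13, a Krüppel-like transcription factor, had its start site 18283 bp from a member with summit pileups (stacked tags at the summit, not scaled to depth) of 70, 80 and 62 in the ESC libraries. The pileup there was 0 to 46 with Nanog+Oct4 (median 16.5, closed on day 0) and 0 to 85 with NanogN70+Oct4 (median 23, closed on days 0 and 1). To set libraries beside each other, each pileup was also divided by the median pileup of its library at the 14217 regions open in all 20 libraries, which gives a relative pileup of 0 where there was no peak. On that scale Klf13 reached 1.42 with Nanog+Oct4 and 2.07 with NanogN70+Oct4, both on day 12, against 2.19, 2.11 and 2.14 in ESCs, so neither path was above an ESC library. The member in an intron of Ago1, an Argonaute protein of RNA silencing, had ESC pileups of 57, 61 and 53. It was open on 8 days with Nanog+Oct4 (9 to 58, median 27) and on 7 with NanogN70+Oct4 (0 to 70, median 27.5). Its highest relative pileup was 1.53 with Nanog+Oct4, below all 3 ESC libraries (1.78, 1.61 and 1.83), and 1.71 with NanogN70+Oct4, above 1 of them. The ranges of the paths overlapped. In an intron of Hipk2, a nuclear kinase, the member had 37, 46 and 42 in ESCs, 0 to 23 with Nanog+Oct4 and 0 to 13 with NanogN70+Oct4, and its relative pileup of at most 0.605 was below all 3 ESC libraries on every day. The Diaph3 member, 352635 bp from the start site of that formin gene, had 32, 41 and 27 in ESCs and opened on day 1 in both paths, up to 17 with Nanog+Oct4 and 22 with NanogN70+Oct4, both on day 7. At Parp11, 109958 bp away, all 16 time course libraries had a peak, with 8 to 23 (median 14) for Nanog+Oct4 and 10 to 37 (median 21) for NanogN70+Oct4, against 35, 37 and 37 in ESCs.

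Libraries held 44126 to 125467 peaks. Read numbers were not available to this work, which leaves depth unknown, and a closed region may be open below detection. The NanogN70+Oct4 day 3 library stood apart. It had peaks at the start sites of 20 of 20 leukocyte genes, against 2 to 6 in each of the remaining time course libraries and 9 to 12 in ESCs, and its median pileup at the regions open everywhere was 60 against 16 to 41 in the others. Of the members, 121 were open on exactly 5 days with NanogN70+Oct4 with day 3 among them. With day 3 of both paths removed and 5 of the other 7 days required, 640 of the members passed. The same step for each other day left 453 (day 7) to 799 (day 0), numbers that follow from how many members were open on the day removed. The octamer share of the 640 within 25 bp was 3.93%, against 3.75% for all members. The left-out comparisons of the paths are given with and without the day 3 score. Day 3 still took part in choosing the regions of the other days.

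The members opened in steps. With Nanog+Oct4, 253 were first open on day 0, 320 on day 1, 238 on day 3 and 100 on day 5, the latest day the rule allows. With NanogN70+Oct4 the numbers were 538, 128, 158 and 87. The first open day was earlier with NanogN70+Oct4 at 399 members (43.8%), the same at 380 (41.7%) and earlier with Nanog+Oct4 at 132 (14.5%). Thus 496 members (54.4%) were open by day 1 in both paths and 168 (18.4%) opened on day 3 or 5 in both. Few were open throughout, with 38 in all 16 time course libraries, and 411 (45.1%) with Nanog+Oct4 and 479 (52.6%) with NanogN70+Oct4 were open on every day after the first. On all of days 5, 7 and 8, 803 members were open with Nanog+Oct4 and 778 with NanogN70+Oct4, which the rule favours, since any 5 successive days of the 8 include days 5 and 7. These counts come from the values that chose the members and have no test.

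**Figure D1:**
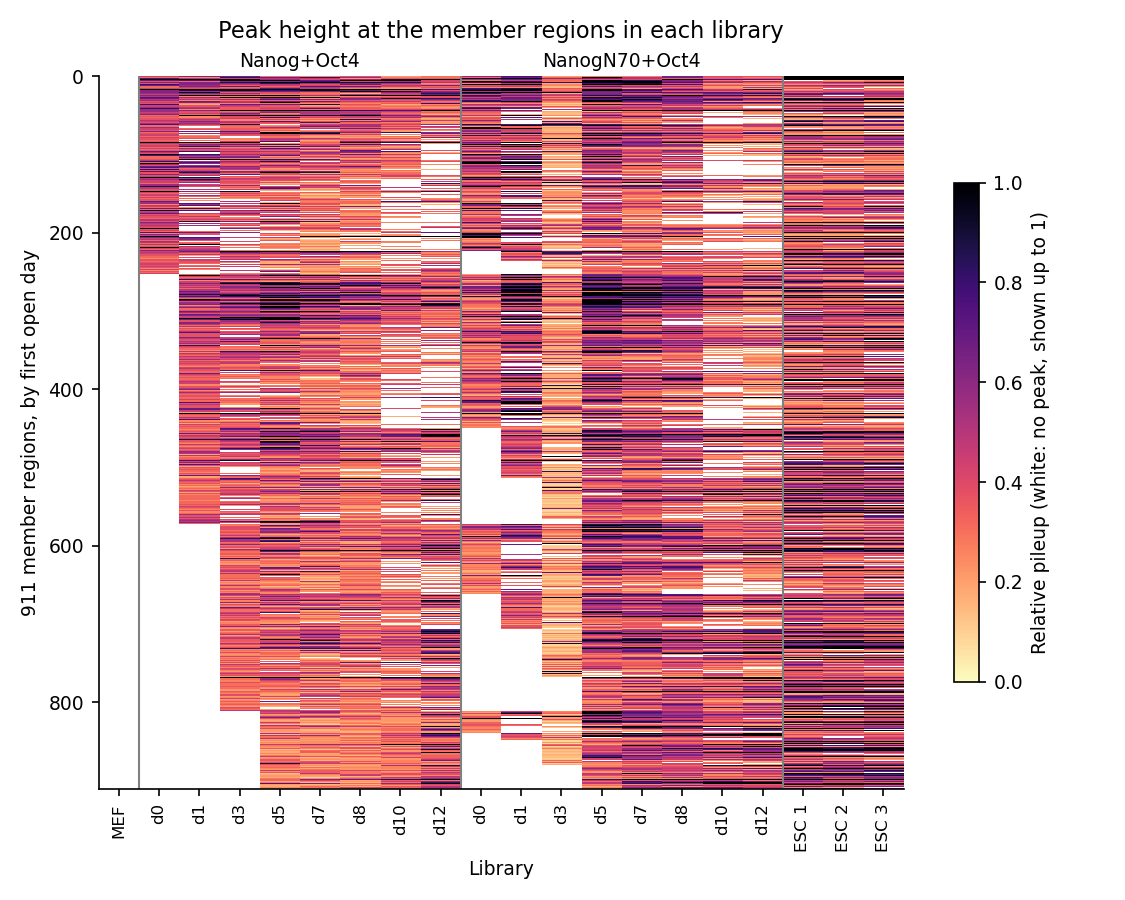
Each row is 1 of the 911 members, ordered by the first open day with Nanog+Oct4 and then with NanogN70+Oct4, and each column is a library. Colour gives the relative pileup up to 1 and white marks no peak. The first open days form steps on days 0, 1, 3 and 5, and white gaps return on days 10 and 12 mainly in the upper rows.

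At the edge of the rule, the 126 members with exactly 5 days in each path had a median ESC relative pileup of 0.418 and a median width of 594 bp. The 352 regions just outside it on the Nanog+Oct4 side, with 4 days there and 5 or more with NanogN70+Oct4, had 0.404 and 548.5 bp. The 161 just outside on the NanogN70+Oct4 side had 0.334 and 490 bp.

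Whether one path opened such regions more often than the other can be asked only on libraries that did not choose them. For each day, regions were therefore chosen on MEFs, ESCs and the other 7 days and then scored in the 2 libraries of the day left out. On day 0, 22.4% of 799 such regions were open with Nanog+Oct4 (95% exact interval 19.6 to 25.5) and 54.3% with NanogN70+Oct4 (50.8 to 57.8). On day 1 the shares were 47.9% and 54.2%, and on day 3 they were 72.8% and 80.6%. Both paths were near complete on day 5 (93.0% and 95.8%) and day 7 (96.2% and 98.7%), and day 8 was the one day with the higher share in Nanog+Oct4 (92.5% against 88.5%). The shares then came down to 68.3% and 70.1% on day 10 and 61.6% and 76.8% on day 12. The libraries as a whole came down too. From day 7 to days 10 and 12, regions shared by MEFs and ESCs went from 83.7% to 70.9% and 71.9% open with Nanog+Oct4 and from 85.3% to 73.2% and 77.6% with NanogN70+Oct4, and peak numbers from 84526 to 50716 and 48843 and from 80881 to 44126 and 54272. By comparison, 1.57% to 15.4% of all ESC-only regions were open in a time course library.

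Averaged over the 8 days, 69.3% of left-out regions were open with Nanog+Oct4 and 77.4% with NanogN70+Oct4, a difference of 8.03 percentage points (SD of the daily differences 11.1, n = 8 days) with NanogN70+Oct4 higher on 7 of 8 days. The two-sided exact permutation test, which flips the signs of the daily differences in every combination, gave p = 0.0391 and an adjusted p = 0.0781 over 2 tests, so the difference did not pass after adjustment. The median relative pileup of the same regions was 0.262 and 0.332, a difference of 0.0696 (SD 0.131, n = 8 days), higher on 6 of 8 days. The test of this mean difference did not pass (exact permutation p = 0.188, adjusted p = 0.188). Days are successive samples of 1 course per path and not replicates of a transduction.

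The share difference moved with single libraries and with the treatment of peaks. Without day 0 it was 4.61 points, without day 3 it was 8.06 points (adjusted p = 0.0781, exact permutation) with a pileup difference of 0.103 (p = 0.0469, adjusted p = 0.0781, exact permutation), and without day 8 it was 9.74 points with an exact permutation p adjusted to 0.0312. Each of these values drops only the score of that day, which still took part in choosing the regions of the other days. At regions shared by MEFs and the 3 ESC libraries, the day 0 libraries had peaks at 66.6% with Nanog+Oct4 and 77.7% with NanogN70+Oct4, with 69575 and 107038 peaks in all. Over the 8 days these shared regions differed by 2.59 points (SD 5.41) in the same direction. With that daily difference subtracted, the left-out regions differed by 5.43 points (adjusted p = 0.0469, exact permutation), and with a minimum score of 100 by 9.83 points (adjusted p = 0.0312, exact permutation). When each library was limited to its 44126 top-scoring peaks, the difference at left-out regions chosen from those peaks was 1.02 points (exact permutation p = 0.633, adjusted p = 0.633). The minimum score and the peak limit each chose the regions anew, with 389 and 1878 members against 911. These alternatives moved the difference between paths in both directions.

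**Figure D2:**
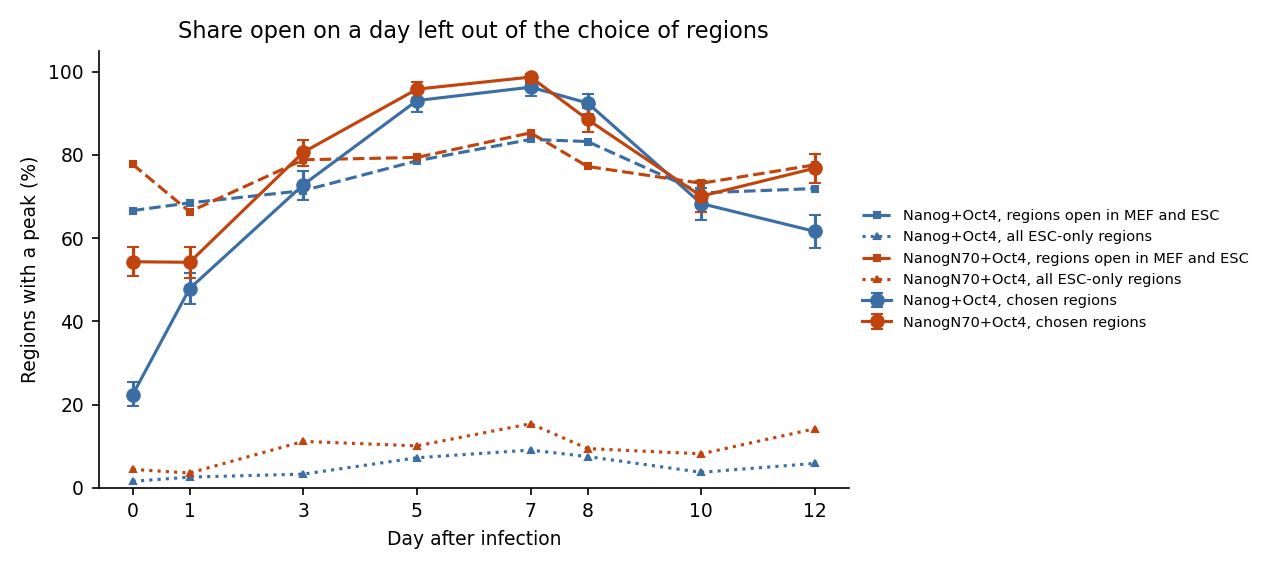
The share of regions with a peak is plotted by day for regions chosen without that day (circles, with 95% exact intervals), for regions open in MEFs and all 3 ESC libraries (squares) and for all ESC-only regions (triangles), in blue for Nanog+Oct4 and in red for NanogN70+Oct4. The chosen regions start at 22.4% and 54.3%, meet above 90% on days 5 and 7, and fall again to 61.6% and 76.8% on day 12.

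ESC libraries were treated in the same way. Scored on regions chosen without it, an ESC library had a peak at 94.6% ± 2.78 (SD, n = 3) of the regions, against 85.6% ± 6.68 of ESC-only regions chosen from the other 2 ESC libraries. The median ESC relative pileup of the placed members was 0.417, against 0.271 at all ESC-only regions and 0.497 at the 315 ESC-only regions that NanogN70+Oct4 had open on 5 or more days and Nanog+Oct4 on none, and 777 of 911 were open in all 3 ESC libraries. Their levels in the time course were mostly lower. The median over members of the day-median relative pileup was 0.295 with Nanog+Oct4 and 0.326 with NanogN70+Oct4, and 246 of the 911 members were above their ESC mean in both paths. This held at 37 of 186 promoter members (19.9%) and 208 of 720 others (28.9%).

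The order of opening went with the ESC signal. Members open by day 1 in both paths had a median ESC relative pileup of 0.378 (quartiles 0.253 and 0.640), and those that opened on day 3 or 5 in both paths had 0.530 (0.330 and 0.776). All 3 ESC libraries were open at 83.1% of the former and 90.5% of the latter. What became of the members on days 10 and 12 showed a like order. The 41 members closed in all 4 of those libraries had a median ESC relative pileup of 0.247 and were open in all 3 ESC libraries at 70.7%. The 429 open in some of the 4 had 0.379 and 80.7%, and the 441 open in all 4 had 0.530 and 91.2%. The quartile ranges of these groups overlapped. The 2 orderings are linked by the rule, since a member that opened on day 5 had to be open on every later day of that path, so they are given as a description.

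The members, like the 315 regions of NanogN70+Oct4 alone, were wider and less repetitive than all ESC-only regions. Their median width was 673 bp, against 565 bp at the 315 and 281 bp at all ESC-only regions, and a region joined from peaks of more libraries is wider by construction. Of the members, 31 of 906 placed on the reference chromosomes (3.42%) had mostly repeat sequence in the 201 bp around the summit, against 7.94% of the 315, 11629 of 55423 placed ESC-only regions and 26.3% of the 36647 ESC-only regions open in no time course library. GC content was 52.5% ± 7.07 (SD over regions) against 51.0%, with a mean of 4.83 CpG sites against 3.39. The ESC summit lay in a promoter, within 2 kb of a start site, at 186 members (20.5%, 95% exact interval 17.9 to 23.3), in an intron at 37.7%, in an exon at 3.75% and between genes at 38.0%. Promoters made up 12.1% of ESC-only regions, 10.4% of those never opened and 76.0% of regions open in all 20 libraries. With this 2 kb window, the share at promoters was 15.9% (12.0 to 20.4) at the 315 regions of NanogN70+Oct4 alone. That interval overlaps that of the members. Within 500 bp of a start site the intervals lay apart, with 12.7% (10.59 to 15.04) of members and 5.4% (3.17 to 8.5) of the 315. All ESC-only regions had 5.18% there. The excess over ESC-only regions differed by ESC signal. At relative pileups under 0.3, 10.3% of both members and ESC-only regions were at promoters. From 0.3 to 0.6 the shares were 22.8% (18.6 to 27.5) and 14.0%, and at 0.6 or more they were 27.5% (22.4 to 33.1) and 15.4%.

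Time course and ESC summits mostly lay close together within the members, whose peaks overlap by the rule. The highest time course summit was within 100 bp of the highest ESC summit at 626 members (68.7%), with a median distance of 44 bp, against 75.3% and 25 bp at regions open in all 20 libraries. A MEF summit lay within 1 kb of 9.44% of members and of 8.14% of all ESC-only regions.

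Of 20 motifs searched, OCT and ESRRB were the 2 whose 95% intervals at members and at all ESC-only regions lay apart in both window sizes, OCT with the higher share at members and ESRRB with the lower. An octamer lay within 25 bp of the ESC summit at 34 of 906 members (3.75%, 2.61 to 5.20) and at 1.55% of ESC-only regions, and within 75 bp at 93 members (10.3%, 8.37 to 12.4) and 4.36% of ESC-only regions. It was found within 75 bp at 3.90% of ESC-only regions never opened and at 1.56% of regions open in all 20 libraries. The 315 regions open with NanogN70+Oct4 alone had it at 8.89% (5.99 to 12.6), an interval that overlaps that of the members. At ESC relative pileups of 0.6 or more it was at 14.6% (10.7 to 19.3) of members and 5.6% (2.28 to 11.2) of the 315. The order was the other way at lower ESC signal, with 10.3% and 11.5% under 0.3 and 6.76% and 10.7% from 0.3 to 0.6. Whether the members and the 315 differ was not tested. Regions are not replicates, and the intervals cover counting error only.

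The higher octamer share was seen at each level of ESC signal and of GC content examined, although the intervals met in 1 of 6 strata. At ESC relative pileups under 0.3 it was 10.3% (6.98 to 14.6) at members and 3.91% at ESC-only regions. From 0.3 to 0.6 it was 6.76% (4.38 to 9.89) against 4.43% (4.13 to 4.75), where the intervals met. At 0.6 or more it was 14.6% (10.7 to 19.3) against 6.41%. By GC content the shares were 17.0% against 8.37% under 45% GC, 11.8% against 4.44% from 45% to 55%, and 4.74% against 1.39% at 55% or more. Taken over both sides of the ESC summit, octamers were found at 7.95 per 1000 members and 10 bp within 25 bp and at the same density from 25 to 75 bp, and at 3.90 from 75 to 150 bp. They were not evenly spread, with 4 within 10 bp of the summit, 33 from 10 to 30 bp on the side of higher coordinates and 12 on the other side. Around the highest time course summit the same counts were 15, 17 and 11. From 30 to 50 bp there, the counts were 27 on the side of higher coordinates and 10 on the other side. A contrast between sides was thus seen around both summits, further out around the time course summit. When opening was considered, 9.78% of members open by day 1 in both paths and 11.9% of those opened on day 3 or 5 had an octamer.

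**Figure D3:**
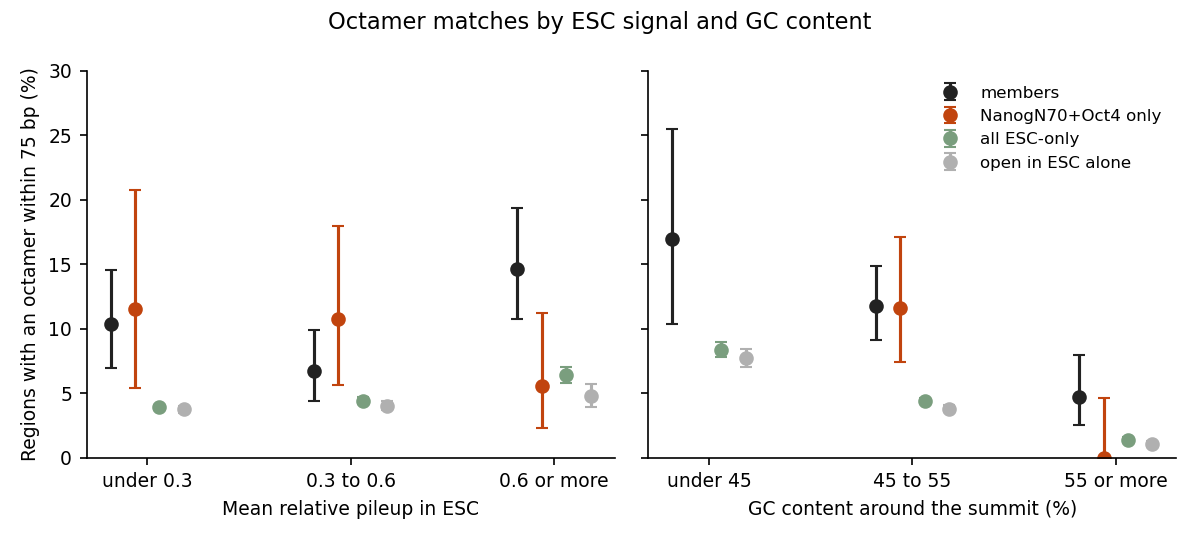
The share of regions with an octamer within 75 bp of the ESC summit, with 95% exact intervals, is plotted by mean ESC relative pileup (left) and by GC content of the surrounding 201 bp (right). Members (black) lie above all ESC-only regions (green) and regions open in ESCs alone (grey) in every stratum, and regions kept open by NanogN70+Oct4 alone (red) have wide intervals that overlap those of the members in each stratum shown by both.

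SOX matches were within 25 bp of the summit at 11.3% of members (9.27 to 13.5) and 9.01% of ESC-only regions, and within 75 bp at 26.5% (23.6 to 29.5) and 24.4%, where the intervals met. By GC content the wider-window intervals also met under 45% and from 45% to 55%. They lay apart at 55% or more, with 22.3% (17.5 to 27.7) of members and 13.7% (13.1 to 14.3) of ESC-only regions. OCT-SOX was within 75 bp at 1.99% (1.18 to 3.12) and 1.66%. An octamer and a SOX match together were found at 29 members (3.20%, 2.15 to 4.56) and 1.25% of ESC-only regions. This share carries the octamer difference given above, and whether the matches occur together beyond their single shares was not tested. NANOG (TAATGG) matched at 7.28% (5.68 to 9.18) and 5.27%, CTCF (CNAGGNGGC) at 7.51% (5.88 to 9.42) and 5.28%, and SP (GGGCGGGG) at 5.08% (3.74 to 6.71) and 3.44%. These 3 lay apart in the wider window but met in the narrower one. KLF (GGGNGTGG) went the other way at 9.71% (7.86 to 11.8) against 12.2%. ESRRB (CAAGGTCA), a binding site of the orphan nuclear receptor of naive ESCs, was within 25 bp of none of the 906 members, for which the 95% exact interval reaches 0.406%, against 0.678% of ESC-only regions. Within 75 bp it was at 6 members (0.662%, 0.243 to 1.44) against 2.30% of ESC-only regions and 2.64% of those never opened. The 315 regions of NanogN70+Oct4 alone had it at 0.635% (0.0770 to 2.27), also low but with a wide interval. Regions open in all 20 libraries were low too, at 0.559% under 45% GC, 0.620% from 45% to 55% and 0.323% at 55% or more. RFX (GTTGCCA) matched at 2.98% and 2.75%, and AP-1 (TGANTCA), an element common in fibroblast enhancers, at 4.86% and 4.67%. TEAD (GGAATG), also common in fibroblast enhancers, matched at 8.39% (6.67 to 10.4) and 10.4%, where the intervals met. In the wider window the intervals met for 14 of the 20 motifs.

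**Figure D4:**
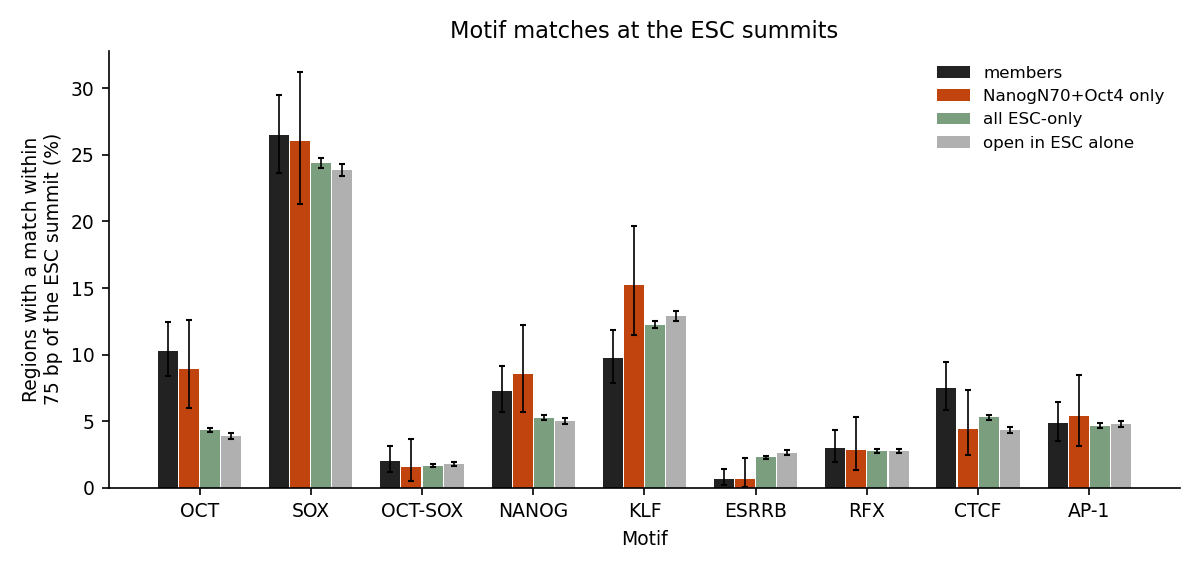
Bars give the share of regions with a match within 75 bp of the ESC summit and lines the 95% exact intervals, for members (black), regions kept open by NanogN70+Oct4 alone (red), all ESC-only regions (green) and ESC-only regions never opened in the time course (grey). OCT is higher at members (10.3%) and at regions of NanogN70+Oct4 alone (8.89%) than at the other 2 sets, and ESRRB is lower at members (0.662%) and at regions of NanogN70+Oct4 alone (0.635%).

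Each member was assigned to the protein-coding gene with the nearest start site within 100 kb, which gave 748 genes for 788 members. This was 3.41% of 21911 protein-coding genes and 5.44% of the 13740 that had any ESC-only region. No gene had more than 2 members, and 40 had 2. None of the members overlapped an exon of Nanog, Pou5f1 or Ss18, whose sequences the vectors carry. Of 23 pluripotency factors 4 had members (17.4%), namely Sall4, Klf4, Sox2 and Jarid2, and of 14 neural regulators 3 had members (21.4%), namely Sox1, Neurog2 and Foxb1. Both lists are too short for these shares to be read against the background. Counts were 2 of 17 late pluripotency genes (Gdf3 and Tet1), 2 of 28 genes of Nodal, BMP and TGF-beta signalling (Gdf3 and Tgfb1), 1 of 22 of FGF, LIF and Wnt signalling (Etv5), 1 of 9 DNA methylation genes (Tet1) and 1 of 20 leukocyte genes (Lck). There were none among 21 epithelial genes, 18 BAF subunits, 18 germline genes, 14 endoderm and mesoderm regulators and 18 fibroblast genes.

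Sall4, a zinc finger factor needed for ESC self-renewal, had 2 members at its promoter. The stronger, chr2:168766288-168767451, had pileups of 40, 45 and 26 in ESCs, 0 to 21 (median 8) with Nanog+Oct4 and 0 to 44 (median 19.5) with NanogN70+Oct4. Relative pileup there was 0.289 with Nanog+Oct4 and 1 with NanogN70+Oct4 on day 7, and 0.875 and 1.07 on day 12, against a mean of 1.11 in ESCs. The paths were furthest apart there on day 7. It was closed on days 0 and 3 with Nanog+Oct4 and on days 0 and 1 with NanogN70+Oct4. The weaker, chr2:168764966-168765709, had 19, 24 and 13 in ESCs, up to 14 with Nanog+Oct4 and up to 25 with NanogN70+Oct4.

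The Sox2 member, chr3:34639239-34639570, lay 11032 bp from the start site of that core pluripotency factor in an annotated intron. Its ESC pileups were 23, 31 and 16, and it had 0 to 12 with Nanog+Oct4 and 0 to 14 with NanogN70+Oct4. With NanogN70+Oct4 it was open on all days from day 5, and with Nanog+Oct4 on day 0 and from day 7, so on only 5 days in each. The Klf4 member, chr4:55480077-55480816, was between genes 51157 bp from the start site of that reprogramming factor. It had 26, 40 and 30 in ESCs, and its highest pileup was 11 in both paths. Jarid2, a subunit of the Polycomb repressive complex PRC2, had 2 members in introns. The one at chr13:44751508-44752254 reached ESC height, above all 3 ESC libraries in relative pileup on 4 days with Nanog+Oct4 and 3 with NanogN70+Oct4, with 25, 29 and 20 in ESCs, 0 to 30 (median 21) with Nanog+Oct4 and 0 to 44 (median 20) with NanogN70+Oct4, and it opened on day 3 in the former and day 1 in the latter.

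Gdf3, a ligand of the TGF-beta family made by ESCs, had a promoter member, chr6:122607643-122608807, with 41, 44 and 40 in ESCs but at most 10 with Nanog+Oct4 and 11 with NanogN70+Oct4. It was open on 7 and 6 days, so it was open early and low throughout. Tet1, an enzyme that oxidises 5-methylcytosine, had an intronic member at chr10:62847030-62847347 with 11, 13 and 0 in ESCs and highs of 11 and 12. In an intron of Tgfb1, a cytokine gene active in fibroblasts, chr7:25699850-25700253 had 26, 29 and 33 in ESCs and highs of 17 and 9. Etv5, an ETS factor downstream of FGF signalling, had an intronic member at chr16:22405502-22406522 open on all 8 days with NanogN70+Oct4 (6 to 15) and on 7 with Nanog+Oct4 (0 to 14), against 27, 26 and 20 in ESCs.

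Sox1, a neural SOX factor, had a promoter member, chr8:12394782-12396010, that was above all 3 ESC libraries in relative pileup on 5 of 8 days in each path. ESC pileups were 31, 32 and 28, while those with Nanog+Oct4 were 0 to 67 (median 32.5) and those with NanogN70+Oct4 were 0 to 103 (median 39). It was closed on days 0 and 1 with Nanog+Oct4 and on day 1 with NanogN70+Oct4. Neurog2, a proneural factor, had a promoter member at chr3:127632364-127633696 with 17, 20 and 14 in ESCs, up to 18 with Nanog+Oct4 and up to 44 with NanogN70+Oct4, both on day 12. The Foxb1 member, chr9:69670049-69671078, 90159 bp from the start site of that forkhead factor, had 10, 11 and 6 in ESCs and reached 16 and 28. Near one of several annotated start sites of Lck, a kinase gene of T cells, chr4:129555068-129555711 had 13, 16 and 7 in ESCs and highs of 20 and 21. This region had no peak in the NanogN70+Oct4 day 3 library, where the peak counted at an Lck start site lay outside it.

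Among the 32 members open in all 16 time course and all 3 ESC libraries, the 8 with the highest ESC signal had their nearest start site at Sfi1, Zbtb2, Csrp2, Ptpn14, Ccdc194, Parp11, Dazap1 and Liph. At Zbtb2, a zinc finger transcription factor, chr10:4375123-4375723 had 51, 55 and 58 in ESCs, 4 to 31 (median 12.5) with Nanog+Oct4 and 8 to 23 (median 14.5) with NanogN70+Oct4. The highest ESC pileups were at Sfi1, a centrosome protein, with 128, 121 and 96 against 15 to 23 and 9 to 31 in the paths. Dazap1, an RNA-binding protein, was the reverse, above all 3 ESC libraries in relative pileup on 8 of 8 days in each path. Its promoter member, chr10:80264288-80265348, had 30, 34 and 29 in ESCs, 20 to 78 (median 60.5) with Nanog+Oct4 and 21 to 137 (median 60) with NanogN70+Oct4. At the Liph promoter, of a phospholipase gene, chr16:21995230-21995787 had 29, 32 and 28 in ESCs and 7 to 23 and 5 to 22 in the paths. At Csrp2, a LIM domain protein, chr10:110930999-110932323 had 42, 54 and 31 in ESCs, 7 to 18 with Nanog+Oct4 and 9 to 35 with NanogN70+Oct4. These 8 had no peak in the MEF library, whose nearest summit was 1242 bp (Csrp2) to 7239 bp (Sfi1) away.

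**Figure D5:**
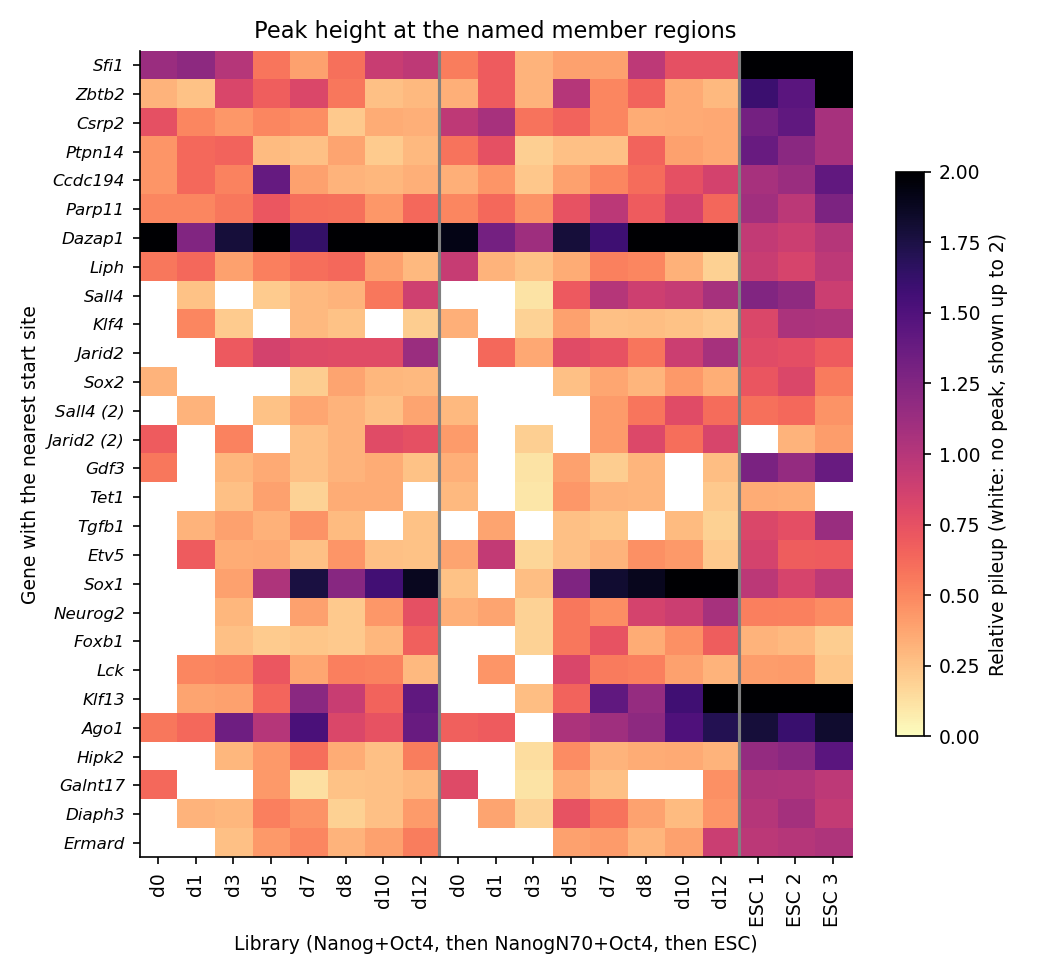
Relative pileup, up to 2, is shown for the 28 named members (rows, by nearest gene, with 2 marking the second member of a gene) in the 16 time course and 3 ESC libraries (columns), and white marks no peak. Dazap1 and Sox1 are darker in the time course than in ESCs, Sfi1, Zbtb2 and Gdf3 are paler, and the Sall4 promoter reaches a relative pileup of 1 with NanogN70+Oct4 on day 7.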

How the data were processed

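ATAC-seq was analysed from 1 MEF library, 3 ESC libraries and 16 time course libraries, grouped by sample title. Per the submitters' processing notes and the study's methods, the authors trimmed reads with Trim Galore 0.6.4, aligned them to mm10 with Bowtie2 2.4.5, filtered them with SAMtools 1.16.1, and called peaks in each library with MACS 1.4.2, keeping duplicates and without a shift model. The deposited score of a peak is -10 times the log10 of its p-value by MACS, with a lowest score of 50. The deposited signal of a summit is its pileup in tags, not scaled to depth. Read numbers per library were not available, so precision rests on numbers of regions and of peaks.

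Peaks that overlapped by 1 bp or more were merged, and the highest summit of a library in a region gave its pileup. Sequence was GRCm38 from RefSeq (mm10 is the same assembly under its UCSC name) and gene models were from GENCODE M21. Summits, lengths and gene positions used that build, and 5 members on unplaced sequences were not annotated. Motif letters were searched on both strands within 25 or 75 bp of the highest ESC summit. Shares have 95% exact (Clopper-Pearson) intervals for counting error only, and regions are not replicates. The 2 tests on days left out of the choice were two-sided exact permutation tests over 8 days, with a smallest p of 0.00781, adjusted together by the Benjamini-Hochberg method. The named members were the 8 open in every time course and ESC library with the highest ESC signal, up to 6 per gene list, and the 6 with an OCT-SOX match and the highest ESC signal. Of the 20 motifs searched, values are given for the octamer, SOX, OCT-SOX and RFX, for AP-1 and TEAD, and for each other motif whose interval at members lay apart from that of all ESC-only regions. The members, gene lists and motifs were chosen with earlier results of these data known. Analyses ran in Python 3.11.15 with numpy 2.4.6, pandas 2.3.3 and SciPy 1.17.1, and the rule, the motif search and the permutation test were tested on simulated data.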

Additional observations from a re-analysis of the deposited data

How the results depend on the processing

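The number of members followed the thresholds. It was 1570 with 4 of 8 days required in each path, 441 with 6 and 38 with 8. It was 389 with a minimum score of 100 and 1878 with the 44126 top-scoring peaks of each library, where MEFs also keep fewer peaks and so close more regions. It was 777 with all 3 ESC libraries, 902 with peaks joined at an overlap of 100 bp, 640 without day 3, and 802 to 849 when each ESC library was left out in turn and both others were required.

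The held-out difference in share stayed positive under every alternative run. It was 4.61 to 9.74 points with the score of each day or each ESC library left out (adjusted p 0.0312 to 0.156, exact permutation) and 1.02 points with the same number of top-scoring peaks in each library (adjusted p = 0.633, exact permutation). A day left out in this way still took part in choosing the regions of the other days. It passed the threshold without day 8, with a minimum score of 100 (9.83 points, adjusted p = 0.0312, exact permutation) and after subtraction of the daily difference at regions shared by MEFs and ESCs (5.43 points, adjusted p = 0.0469, exact permutation). The held-out difference in relative pileup was 0.0439 to 0.103 over the same left-out libraries (adjusted p 0.0781 to 0.375, exact permutation) and 0.196 with pileups divided by the median of all summits of a library (exact permutation p = 0.0859, adjusted p = 0.0859), and did not pass in any. The cause of these shifts was not tested. Pairing was by day in both tests, and no paired analysis was possible by replicate number because each day of a path has 1 library.

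The share of members at promoters was 12.7% (10.59 to 15.04) with a window of 500 bp. In that window it was 5.18% at all ESC-only regions and 5.4% (3.17 to 8.5) at the 315 regions of NanogN70+Oct4 alone. The intervals of the members and the 315 thus lay apart at 500 bp, although they overlapped at 2 kb. Windows of 75 bp hold more matches by construction, at 10.3% for OCT, 26.5% for SOX, 1.99% for OCT-SOX, 7.28% for NANOG, 9.71% for KLF, 7.51% for CTCF, 4.86% for AP-1, 0.662% for ESRRB and 2.98% for RFX. Around time course summits, away from promoters, and for members chosen without day 3 (an alternative added after the data were seen), each of these 9 shares within 25 bp was inside the interval of its main value. This compares members with themselves. Set against ESC-only regions with a time course peak, the intervals around time course summits lay apart for OCT and NANOG. They met for SOX (7.56 to 11.5 and 8.41 to 9.23) and for ESRRB (0 to 0.406 and 0.328 to 0.518). Unknown depth limits each call of a closed region.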
